A study of Homo sapiens with 6 samples.

Results

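Transcripts of 8 enzymes that feed carbon into the tricarboxylic acid (TCA) cycle, draw it out again or pass glutamine carbon towards it were followed in PC-3 cells, in a study whose title describes its compound as a way to deprive prostate cancer cells of glucose. The genes were PC, PCK2, CS, IDH1, IDH2, GLUD1, GPT2 and GOT1, taken by symbol, and all 8 were found among the 18780 gene symbols of the deposited table. PC-3 is a human prostate cancer line, and 3 samples had 24 h of trans-Gnetin H (TGH), a resveratrol trimer, at 2.5 µM, while 3 control samples had DMSO over the same 24 h, all in DMEM/F12 medium with 10% serum. Whether the replicates were separate cultures is not stated, so each p-value measures the spread between these libraries, which may be technical. A single line was used, so nothing here speaks for other prostate cancer cells.

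The TCA cycle burns acetyl groups in mitochondria, and its intermediates also leave it as building blocks for fat, amino acids and nucleotides. Anaplerosis is the refilling of those intermediates, from pyruvate through pyruvate carboxylase or from glutamine through glutamate and 2-oxoglutarate. Glutamate gives up its nitrogen either to glutamate dehydrogenase, which releases ammonia, or to transaminases, which hand it to pyruvate or oxaloacetate. Cultured tumour cells are known for drawing heavily on glutamine by these routes, and PCK2 and GPT2 are known in other cells as genes read by ATF4, the transcription factor of the amino acid response.

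With TGH, PCK2 rose 2.41-fold and PC 2.13-fold in mean TPM, a unit of transcript abundance scaled by transcript length and library total. GPT2 rose 1.51-fold, IDH1 and IDH2 rose by 13.4% and 12.3%, and CS fell to 0.698 of its control level. GLUD1 and GOT1 did not pass the test. Of the 8 genes 5 were called higher and 1 lower at an adjusted p under 0.05 (limma on the deposited log2(TPM + 1) values, Benjamini-Hochberg over 12018 genes), where 28.9% of all genes tested were called higher and 26.3% lower. The median difference of the 8 was 0.17 on the log2 scale, against 0.02 over all genes tested. Differences of at least 0.5 that were called made up 3 rises and 1 fall among the 8, and 7.29% rises and 3.31% falls among all genes. The members were chosen with results of these data known, so these counts describe them and single nothing out.

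The libraries were checked for what could touch these values. DMSO replicates 1 and 2 had 3074 and 3185 genes without any signal, against 1342 to 1530 in the other 4 libraries, and the read depth behind TPM is unknown. None of the 48 member values was 0. The epithelial keratins KRT8 and KRT18 averaged 604 and 578 TPM in DMSO and differed by -0.51 and -0.45 on the log2 scale with TGH, both called lower. Other epithelial markers moved less. EPCAM differed by -0.13 and was called lower. KRT19 (-0.09, limma adjusted p = 0.203) and CDH1 (0.07, limma adjusted p = 0.0787), named after their values were seen, were not called. The 10 markers of immune, endothelial, stromal and neuroendocrine cells summed to between 1.07 and 1.95 TPM in the DMSO libraries and between 1.48 and 1.76 TPM with TGH. CHGA was at 0 in all DMSO libraries and averaged 0.00246 TPM with TGH. In bulk RNA a change in every cell and a change in the share of cells that hold a transcript cannot be told apart.

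Promoter sequence was used for 7 of the 8 genes, all but GPT2, in 10 windows of 300 bases from RefSeq (GRCh38.p14), each from 250 bases before to 50 after a transcript start. The stretches below are shown because they hold the matches counted afterwards, in a gene that rose strongly (PC), the gene that fell (CS), the gene with the largest rise (PCK2), a gene with a small rise (IDH1) and a gene that was not called (GOT1). Each reads 5′ to 3′ on the gene's strand. Of the 30 bases shown, 28 in PCK2 and all 30 in GOT1 lie in an annotated exon of the gene. Those 2 matches thus lie before the start used here but inside another annotated transcript. Capitals mark CCAAT in PC, CS and PCK2, TGACNNNGC in IDH1, and the reverse complement of TGATGNAA in GOT1.
PC, minus strand, chr11:66958384-66958633: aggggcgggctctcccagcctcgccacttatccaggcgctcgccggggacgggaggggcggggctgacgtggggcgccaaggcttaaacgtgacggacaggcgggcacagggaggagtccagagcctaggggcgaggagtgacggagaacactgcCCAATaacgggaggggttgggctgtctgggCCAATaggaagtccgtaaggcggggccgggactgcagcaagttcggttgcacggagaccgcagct
CS, minus strand, chr12:56300393-56300580: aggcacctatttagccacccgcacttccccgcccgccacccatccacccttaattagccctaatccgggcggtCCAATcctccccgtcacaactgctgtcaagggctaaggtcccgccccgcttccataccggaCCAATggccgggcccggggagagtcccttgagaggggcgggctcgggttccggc
PCK2, plus strand, chr14:24094106-24094135: ggacccagtcctCCAATgggagagatgggt
IDH1, minus strand, chr2:208255195-208255224: cccctctcgcTGACTCCGCccatcccacgg
GOT1, minus strand, chr10:99430804-99430833: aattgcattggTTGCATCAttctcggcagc

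Both strands of each window were searched for the core of the amino acid response element (TGATGNAA), the E-box CACGTG, the ER stress element, whose letters begin with a CCAAT, and the antioxidant response core TGACNNNGC. TGATGNAA is present in 3.62% of 34943 RefSeq windows, and among the 7 genes searched it was found only in the window of GOT1, whose transcript was not called. CACGTG (7.23% of all windows) and the ER stress element (0.0773%) had 0 matches in the 10 windows. TGACNNNGC (13.3% of all windows) had 1 match, in a window of IDH1. CCAAT was added after the sequences were seen; it stands in 34.6% of all windows and was found in those of PC, PCK2, CS, IDH1 and GOT1, that is in genes that rose, fell and were not called. A match is a run of letters and no evidence of binding, and sites outside these windows were not searched.

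**Figure D1:**
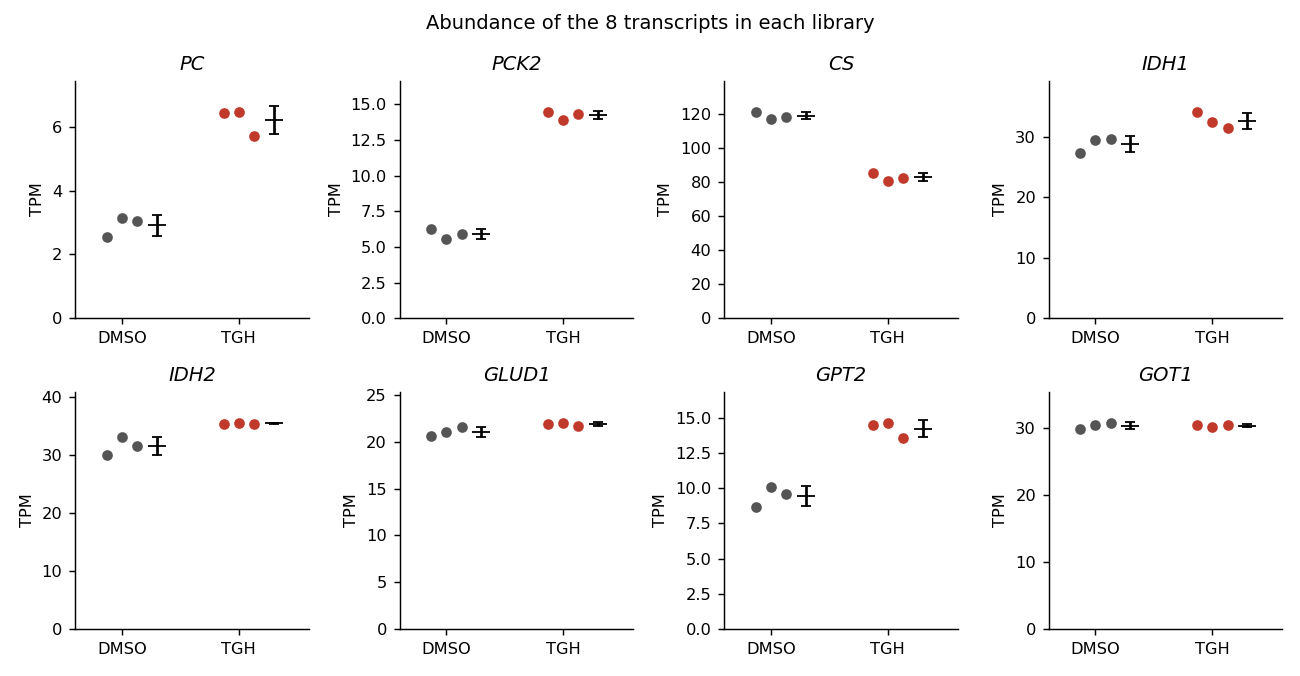
TPM of each of the 8 transcripts in the DMSO (grey) and TGH (red) libraries, replicates 1 to 3 from left to right, with mean and SD (n = 3) in black beside them; each axis starts at 0. PC, PCK2 and GPT2 stand clearly higher with TGH and CS clearly lower, while the points of GOT1 interleave.

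Pyruvate carboxylase, encoded by PC, adds carbon dioxide to pyruvate to make oxaloacetate in mitochondria. PC was at 2.54, 3.15 and 3.04 TPM in DMSO replicates 1 to 3 and at 6.45, 6.47 and 5.70 TPM in TGH replicates 1 to 3. Every TGH library stood above every DMSO library, as was the case for 64.4% of all genes tested in either direction. The means were 2.91 ± 0.322 and 6.21 ± 0.436 TPM (SD, n = 3 each), and the difference on the log2(TPM + 1) scale was 0.88 (SE 0.079, limma adjusted p = 0.000162). PC was the least abundant of the 8 in both groups, so its difference depends on the offset. It was 0.50 with a pseudocount of 5 and stayed called. LRFN4, a gene on the opposite strand within PC, averaged 29.2 ± 4.77 TPM without TGH and 32.3 ± 1.56 TPM under it (SD, n = 3 each). Its difference of 0.15 (SE 0.114, limma adjusted p = 0.294) was not called, and the sources used here do not state whether counting used the strand.

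PCK2 encodes the mitochondrial phosphoenolpyruvate carboxykinase, which takes oxaloacetate out of the cycle as phosphoenolpyruvate. It was at 6.24, 5.53 and 5.92 TPM in DMSO replicates 1 to 3 and at 14.5, 13.9 and 14.3 TPM with TGH. The groups were far apart and each was tight. The difference was 1.14 (SE 0.048, limma adjusted p = 8.67e-06), above that of 99.1% of the genes tested. NRL, which lies on the opposite strand across PCK2, was at most 0.382 TPM in any library. PCK1, the cytosolic enzyme, was looked for but was not found among the gene symbols listed, so it has no value here.

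Citrate synthase (CS) joins oxaloacetate with acetyl-CoA and opens the cycle. It was the most abundant of the 8, at 121, 117 and 118 TPM in DMSO replicates 1 to 3 and 85.5, 80.9 and 82.5 TPM with TGH. All TGH libraries lay below all DMSO libraries. CS fell by 0.51 on the log2 scale (SE 0.028, limma adjusted p = 2.13e-05), which put it lower than all but 3.32% of the genes tested. It was the 1 member called lower.

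IDH1, in the cytosol and peroxisomes, and IDH2, in mitochondria, interconvert isocitrate and 2-oxoglutarate with NADP as the cofactor. IDH1 was at 27.4, 29.5 and 29.7 TPM in DMSO and 34.2, 32.5 and 31.5 TPM with TGH. The lowest TGH library exceeded the highest DMSO library by a small margin. The difference of 0.18 (SE 0.045, limma adjusted p = 0.0151) was lost without TGH replicate 1 (0.14, limma adjusted p = 0.0517) and with DMSO replicate 3 as the only control (0.13, limma adjusted p = 0.0916). With a single control, here and below, only the TGH libraries give an estimate of spread, which is taken to hold for the DMSO arm too. IDH1-AS1, an antisense gene that overlaps IDH1, averaged 0.886 ± 0.395 TPM without TGH and 1.66 ± 0.339 TPM under it (SD, n = 3 each), and without knowledge of the strand its reads cannot be told apart from those of IDH1. Its difference of 0.51 had a limma adjusted p of 0.0459, which rose to between 0.0503 and 0.141 under 12 of 17 alternatives. The difference itself was 0.33 without DMSO replicate 2, 0.18 with a pseudocount of 5 and 0.91 with a pseudocount of 0.1.

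IDH2 was at 29.99, 33.2 and 31.6 TPM in DMSO and 35.4, 35.6 and 35.4 TPM with TGH. The TGH libraries nearly coincided and all lay above the more widely spread controls. The difference was 0.16 (SE 0.039, limma adjusted p = 0.0119). Within a library the ratio of IDH1 to IDH2 was 0.914 ± 0.026 in DMSO and 0.923 ± 0.038 with TGH (SD, n = 3 each), and the ranges overlapped (exact permutation p = 0.70, two-sided).

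Glutamate enters through GLUD1 or through the transaminases. GLUD1, the mitochondrial glutamate dehydrogenase, was at 20.6, 21.0 and 21.6 TPM in DMSO and 22.0, 22.1 and 21.7 TPM with TGH. The groups nearly met but did not overlap. The difference of 0.05 was not called (95% interval -0.02 to 0.13, limma adjusted p = 0.170). GLUD1P3, a pseudogene of GLUD1, rose from 1.35 ± 0.255 to 2.60 ± 0.157 TPM (SD, n = 3 each; difference 0.62, limma adjusted p = 0.00147), and reads of near-identical copies may be split between the genes, so both values are uncertain. GLUD2, the retrocopy, averaged 0.0478 TPM in DMSO and 0.0562 TPM with TGH. GLUD1P7 was listed at 0 in the 3 DMSO libraries and averaged 0.0121 TPM with TGH, and both were below the minimum for testing.

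GPT2, the mitochondrial alanine transaminase, turns pyruvate and glutamate into alanine and 2-oxoglutarate. It was at 8.66, 10.1 and 9.59 TPM in DMSO and 14.5, 14.7 and 13.6 TPM with TGH. The groups were well apart. The difference was 0.55 (SE 0.060, limma adjusted p = 0.000414). Its cytosolic relative GPT averaged 0.203 TPM in DMSO and 0.245 TPM with TGH and was below the minimum for testing.

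GOT1, the cytosolic aspartate transaminase, works in the malate-aspartate shuttle and in the supply of aspartate. It was at 29.7, 30.4 and 30.7 TPM in DMSO and 30.4, 30.03 and 30.3 TPM with TGH. The libraries of both groups interleaved. The difference was -0.00 with a 95% interval of -0.06 to 0.06 (limma adjusted p = 0.966). The mitochondrial enzyme GOT2 fell from 86.9 ± 3.74 to 70.2 ± 1.25 TPM (SD, n = 3 each; difference -0.30, limma adjusted p = 0.000544).

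**Figure D2:**
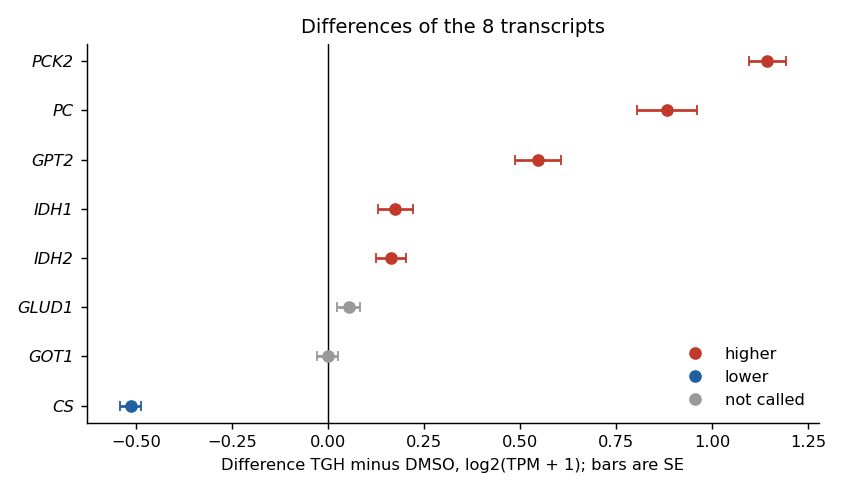
Difference between TGH and DMSO for each of the 8 transcripts on the log2(TPM + 1) scale, with its standard error; red marks genes called higher, blue lower and grey not called. PCK2 (1.14), PC (0.88) and GPT2 (0.55) lead, IDH1 and IDH2 lie at 0.18 and 0.16, and CS stands alone at -0.51.

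The order of abundance, compared per transcript length in TPM, differed between the groups in the places of IDH1 and GOT1. In DMSO it ran CS, IDH2, GOT1, IDH1, GLUD1, GPT2, PCK2 and PC, and IDH2 and GOT1 had overlapping ranges. GOT1 and IDH1 were also nearly level there, with IDH1 at 29.7 TPM in its highest library and GOT1 at 29.7 TPM in its lowest. With TGH, IDH1 stood above GOT1, and the ranges of PCK2 and GPT2 overlapped (14.2 ± 0.293 and 14.2 ± 0.593 TPM, SD, n = 3 each). The other neighbours in the TGH order did not overlap.

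Summed over the 8 genes the libraries held 246, 250.2 and 250.4 TPM in DMSO replicates 1 to 3 and 243, 236 and 235 TPM with TGH. Every TGH library lay below every DMSO library, with a difference in means of -11.0 TPM (exact permutation p = 0.10, two-sided, the smallest that 3 against 3 can give). Without CS, left out after its fall was seen, the sum was 130.1 ± 4.29 TPM in DMSO and 155 ± 2.42 TPM with TGH (SD, n = 3 each). Its exact permutation p was again 0.10 (two-sided). As the sum was redefined after the values were seen, it is given as a description only.

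Ratios within a library set members against each other and against partners, in 6 pairs. CS transcripts outnumbered those of PC by a ratio of 47.6, 37.3 and 38.8 in DMSO replicates 1 to 3 and of 13.3, 12.5 and 14.5 with TGH. The ratio of PC to PDHA1, a subunit of pyruvate dehydrogenase, which is the other way for pyruvate into the cycle, went from 0.0527 ± 0.0053 to 0.125 ± 0.0067 (SD, n = 3 each). The ratio of GPT2 to GOT1 went from 0.312 ± 0.021 to 0.471 ± 0.021, and that of GLUD1 to GOT1 from 0.696 ± 0.0060 to 0.724 ± 0.0094 (SD, n = 3 each). These 4 ratios did not overlap between the groups, with an exact permutation p of 0.10 each and 0.15 after Benjamini-Hochberg adjustment over the 6 pairs, a test that cannot go lower with 3 libraries a group. For CS to PC and PC to PDHA1 this follows from the single genes, which moved in opposite directions without overlap. The ratios thus restate single-gene values, of which 64.4% over all genes tested did not overlap, and are no separate support.

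The genes nearest in pattern were sought for the member with the largest rise and the one that fell, by Euclidean distance over the 6 libraries between log2 values centred on the DMSO mean. Members and the small RNA and histone families were left out of the search. Closeness follows from this choice and was not tested. For PCK2 these were DNAJC3, an ER co-chaperone and inhibitor of eIF2alpha kinases, at a distance of 0.042, STC2, a secreted glycoprotein, at 0.091, and AGR2, an ER protein of the disulfide isomerase family, at 0.099. DNAJC3 went from 12.8 ± 0.717 to 29.7 ± 0.463 TPM (SD, n = 3 each), a difference of 1.16 beside 1.14 for PCK2. For CS they were XPO1, a nuclear export receptor, at 0.014, NAA50, an acetyltransferase subunit, at 0.028, and FEN1, a nuclease of DNA replication, at 0.030. XPO1 went from 79.3 ± 1.27 to 55.2 ± 1.61 TPM (SD, n = 3 each), a difference of -0.52 beside -0.51 for CS.

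**Figure D3:**
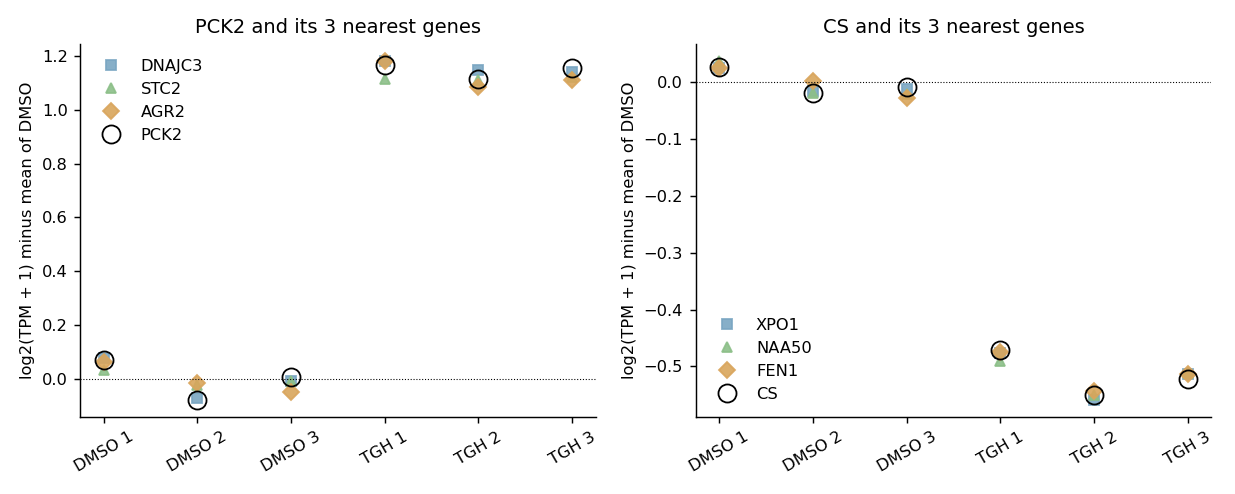
log2(TPM + 1) minus the DMSO mean in each of the 6 libraries for PCK2 (left) and CS (right), drawn as open circles, with the 3 genes nearest in distance as filled symbols. The symbols of DNAJC3 and XPO1, the nearest genes at distances of 0.042 and 0.014, lie on or close beside the circles in every library, because they were chosen by this distance.

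Around these 8 genes the pathway was split into lists, whose calls are read against 28.9% higher and 26.3% lower among all genes. For pyruvate entry into mitochondria 2 of 12 genes tested were higher and 4 lower, with a median of -0.06. When single libraries were left out, 2 were called higher and 3 to 5 lower. MPC1, a subunit of the mitochondrial pyruvate carrier, rose from 9.10 ± 0.234 to 21.6 ± 0.865 TPM (SD, n = 3 each; difference 1.16, limma adjusted p = 4.61e-06). Its partner MPC2, named after its values were seen, was at 29.3 ± 0.701 and 27.2 ± 0.863 TPM (difference -0.11, limma adjusted p = 0.0356, a call lost under 7 of 18 alternatives). PDP1, the phosphatase that activates pyruvate dehydrogenase, rose by 0.43, and DLAT, its acetyltransferase subunit, fell by 0.23.

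Of 18 other TCA cycle enzymes 4 were higher, 5 lower and 9 not called, with a median of -0.01. Leaving out single libraries gave 3 to 4 higher and 4 to 7 lower. SUCLG2, a subunit of the GTP-forming succinyl-CoA ligase, rose from 22.2 ± 1.25 to 34.9 ± 1.33 TPM (SD, n = 3 each; difference 0.63, limma adjusted p = 9.13e-05). IDH3A, a subunit of the NAD-dependent isocitrate dehydrogenase, fell from 36.7 ± 2.37 to 25.4 ± 0.78 TPM (difference -0.51, limma adjusted p = 0.000239). Other subunits of these 2 enzymes, named after their values were seen, did not move the same way. IDH3B was not called (-0.004), and IDH3G was 0.12 higher (limma adjusted p = 0.0375). SUCLG1, the partner of SUCLG2, was 0.12 lower (limma adjusted p = 0.0439). These last 2 calls were close to the threshold. FH, fumarase, fell by 0.25.

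Among other enzymes that fill or drain the cycle 6 of 12 tested were higher and 2 lower, with a median of 0.09. Here 4 to 6 were called higher and 2 lower when a single library was left out. ACLY, which splits exported citrate in the cytosol, fell by 0.29 (limma adjusted p = 0.000201), and SLC25A1, which exports citrate from mitochondria, fell by 0.27 (limma adjusted p = 0.000327). ME3, a mitochondrial malic enzyme, rose by 0.49 (limma adjusted p = 0.00698). PC carries biotin, and the genes around biotin enzymes that follow were named after their values were seen. HLCS, which attaches biotin to carboxylases, was 0.18 higher (limma adjusted p = 0.00914), and PCCA, the biotin-bearing subunit of propionyl-CoA carboxylase, was 0.54 higher (limma adjusted p = 0.0106). PCCB, the other subunit of that enzyme, was 0.11 higher (limma adjusted p = 0.0261). BTD, which recycles biotin, was not called (0.01, limma adjusted p = 0.910).

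In a list around the malate-aspartate shuttle, beside GOT1, 2 of 7 partners were higher and 3 lower, with a median of -0.20. The list counts SLC25A10, the dicarboxylate carrier, which is not a carrier of the shuttle itself. GOT2 fell as given above, SLC25A10 fell by 0.33, and MDH2, mitochondrial malate dehydrogenase, rose by 0.19 on the log2 scale. The shuttle's own carriers, named after their values were seen, differed in direction. SLC25A13 fell by 0.36, SLC25A11 rose by 0.15, and SLC25A12 was not called (-0.20). Only 1 partner was called higher without DMSO replicate 2, without TGH replicate 1, without TGH replicate 3 or with DMSO replicate 3 as the only control.

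Of 13 other enzymes of glutamine and glutamate 5 were higher and 4 lower, with a median of -0.10. Called lower were only 2 without TGH replicate 2, without TGH replicate 3 or with DMSO replicate 3 as the only control. ASNS, which uses glutamine to make asparagine, rose from 26.5 ± 1.19 to 78.0 ± 1.98 TPM (SD, n = 3 each; difference 1.52, limma adjusted p = 1.36e-06). PYCR1, for proline synthesis, rose by 0.77 and GFPT1, the entry enzyme of hexosamine synthesis, by 0.60. Of glutamine and glutamate transporters 6 of 9 tested were higher and 0 lower, with a median of 0.28, where limma at an unadjusted p under 0.05 also gave 0 lower. With single libraries left out, only 4 to 5 of them were called higher and 0 lower. SLC3A2, the heavy chain of amino acid exchangers, rose by 1.37, SLC7A11, the cystine-glutamate exchanger, by 0.79, SLC38A1, a glutamine transporter, by 0.38, and SLC1A5, a glutamine importer named after its values were seen, by 0.41.

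The ATF4 amino acid response list, which holds neither PCK2 nor GPT2 but shares ASNS, PYCR1, SLC3A2 and other genes with the lists above, had 20 of 23 genes higher and 2 lower, with a median of 0.77. SLC3A2 rose by 1.37, STC2 by 1.12 and DDIT3, the stress factor CHOP, by 2.01. ATF4 itself, named after its values were seen, went from 166 ± 6.53 to 252 ± 0.954 TPM (SD, n = 3 each; difference 0.60, limma adjusted p = 1.58e-05). Differences in the list ran from -0.50 to 2.01. Those of PCK2 (1.14) and PC (0.88) lie above its median, and those of GPT2 (0.55) and the other 5 members lie below it. Whether ATF4 had a part in any of them was not tested.

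**Figure D4:**
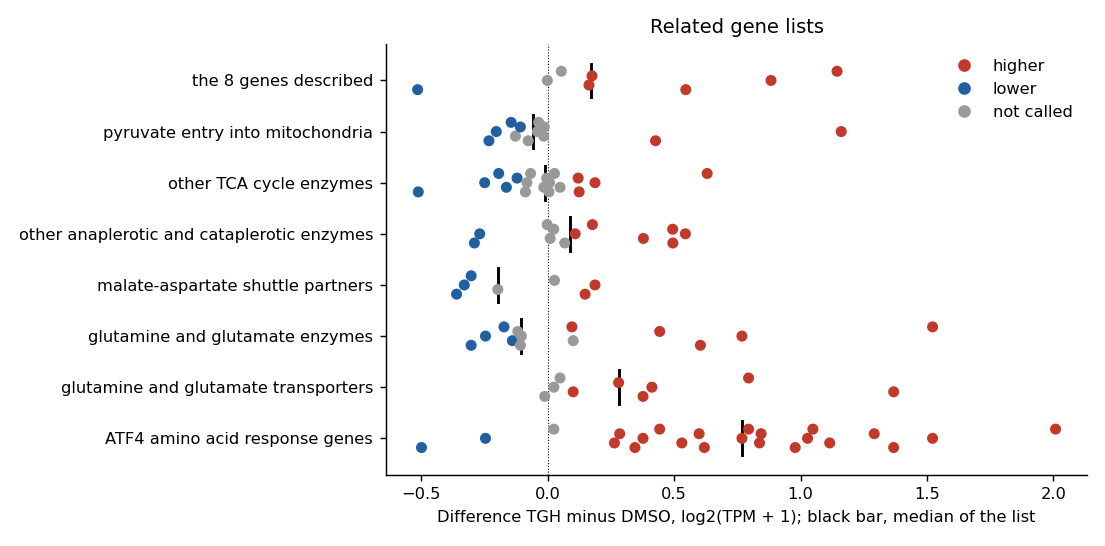
Difference between TGH and DMSO on the log2(TPM + 1) scale for each gene tested of the 8 described and of 7 related lists, 1 point per gene, red for called higher, blue lower and grey not called; the vertical spread within a list has no meaning and the black bar is the median. The ATF4 list lies mostly to the right (median 0.77), while the other TCA cycle enzymes centre on -0.01.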

How the data were processed

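RNA sequencing of 6 PC-3 libraries was used. Per the labels' protocols, ribosomal RNA was removed before directional library preparation. The authors deposited log2(TPM + 1) values per gene symbol; the submitters' processing notes name hg19, while aligner, quantifier and annotation are not stated in the labels used here. Listed TPM sum to between 502380 and 518870 per library, short of a full TPM total. Transcripts that are not listed thus share in the scale of every level, and whether their part differed between the groups was not tested. TPM keeps no read total, so depth is unknown. The precision of a difference rests on the spread between libraries, which limma moderates with that of the other genes tested.

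The 12018 genes averaging 1 TPM or more were fitted with limma 3.58.1 in R 4.3.3 (trended moderated variances, no block, two-sided), and called at a Benjamini-Hochberg adjusted p under 0.05. The fit was tested on simulated data. Sums and ratios had exact permutation tests. Of 6 ratios tested, 1 is not reported here, nor are some genes the naming rule covers. Folds are of mean TPM; differences are of log2(TPM + 1), so changes of low genes are understated. Plots used matplotlib 3.10.9.

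Named are the 8 members, up to 3 genes per list with the smallest p, paralogs, overlapping genes, ratio partners, and those nearest in pattern. Members and lists were chosen with earlier results of these data known. Marker lists gave 3 of 5 epithelial genes lower and 1 of 2 tested luminal genes higher, the latter 0 without DMSO replicate 3 or any single TGH library, and under 5 other alternatives. Alternatives were 2 pseudocounts, 2 filters, 3 scalings, 2 variance models, a replicate block, zeros as missing, and left-out libraries.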

Additional observations from a re-analysis of the deposited data

How the results depend on the processing

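PC, PCK2, GPT2 and IDH2 stayed called higher and CS lower under every alternative that gave a value (17 for PC, 18 for the others), with differences of 0.50 to 1.07, 0.82 to 1.26, 0.41 to 0.59, 0.13 to 0.20 and -0.55 to -0.49. PC falls under a minimum of 5 TPM and was not tested there. IDH1 lost its call without TGH replicate 1 (0.14) and against DMSO replicate 3 alone (0.13), where only the TGH libraries give the spread, and spanned 0.14 to 0.20 when single libraries were left out. GLUD1 was never called (0.02 to 0.07). GOT1 changed sign without ever being called, at 0.019 under quantile normalization and from -0.014 to 0.0086 with single libraries left out (0.0010 without DMSO replicate 2, 0.0086 without DMSO replicate 3, 0.0037 without TGH replicate 2). The log2 ratio of IDH1 to IDH2, 0.01, was -0.029 against DMSO replicate 3 alone, and -0.019 to 0.037 with single libraries left out (-0.0072 without DMSO replicate 2, -0.019 without TGH replicate 1). For these results the cause was not tested. Replicate numbers are shared by both groups, and deviations of same-numbered libraries correlated at 0.0088, 0.054 and 0.23 across genes. The last, for replicate 3, was the highest between any DMSO and any TGH library. Deviations sum to 0 within each group, so these correlations cannot settle whether the numbers mark pairs. With the replicate block 3273 genes were higher and 2958 lower, against 3479 and 3156, and 5 members were higher and 1 lower, as without it. DMSO replicate 1 correlated best with TGH replicate 2 (0.037), and DMSO replicate 2 with TGH replicate 1 (0.096). Depth is unknown, so what it limits could not be measured.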
